A study of Mus musculus with 2 samples.

Results

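The genes described here encode chromatin remodelers and histone modifiers of mouse embryonic stem cells. Members were chosen by symbol: genes that begin with Smarc, Chd, Kdm, Kmt2, Kmt5, Hdac, Setd, Ehmt or Suv39h, the Cbx genes, and Ezh1, Ezh2, Eed, Suz12 and Ino80. Of 87 matching symbols, 80 had at least 200 unique molecular identifiers (UMIs, one per captured transcript) over both libraries, among 10380 genes that did. The 7 below were Cbx8 with 192 UMIs, Setd7 with 186, Chd5 with 107, Kdm5d with 77, Kdm6bos with 26, Hdac9 with 4 and Kdm4d with 1. Among those just inside were Hdac7 with 226 and Hdac8 with 254. The rule used abundance summed over both libraries, not the difference between treatments, so a gene high in 1 library could pass by that library. Smarca2, with 57 UMIs in DMSO and 588 in Idoxuridine, reached the minimum by its Idoxuridine UMIs. Hdac7 had 167 in DMSO and 59 in Idoxuridine. The rule takes in symbols and not functions. Chd3os is a gene beside Chd3 that encodes no remodeler, and Setd8 is now named Kmt5a. Writers and erasers with other symbols are outside the rule.

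The study compared 2 single-cell libraries of E14 cells, a male mouse embryonic stem cell line given as strain C57BL/6 in the labels. Both cultures were kept without feeder cells on gelatin in ESGRO-2i medium and treated for 24 h in 2i/LIF, kinase inhibitors with leukaemia inhibitory factor that hold the cells in a naive state. One received the solvent DMSO (811 cells, 40818344 UMIs), the other Idoxuridine, a thymidine analogue taken up into DNA (742 cells, 30454626 UMIs). The treatment label gives 10 µM and the protocol 10 mM. The question stated in the labels is whether the drug acts as an enhancer of noise, the difference between cells in the level of a transcript.

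There was 1 library per treatment. No test between treatments was possible and no p-value is given. Every difference is between these libraries, and the 95% intervals in parentheses cover the error of counting alone. UMIs of 3′ ends count transcripts and do not grow with transcript length, so levels in counts per 1000000 UMIs (CPM) can be set side by side between genes, apart from differences in capture. In summed counts, fewer cells with a transcript and less RNA per cell cannot be told apart.

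The median DMSO cell held 44502 UMIs and the median Idoxuridine cell 37425. Both libraries shared 2 cell barcodes. The stem cell markers were present in both, with a summed level of 5989 CPM in DMSO and 4278 CPM in Idoxuridine, and 4 of 8 were lower in Idoxuridine by the rule given below. The median share of nuclear-retained RNA per cell was 0.319% in DMSO and 0.507% in Idoxuridine. Fibroblast markers summed to 0.710 and 11.6 CPM, with Postn at 0 in both libraries and Col1a1 and Col3a1 at 0 in DMSO. Primitive endoderm markers summed to 1.20 and 8.44 CPM and trophectoderm markers to 145 and 240 CPM. Mesendoderm markers summed to 17.4 and 34.9 CPM, with T higher at 1.86 and 14.9 CPM, and neuroectoderm markers to 132 and 205 CPM, with both tested ones, Nes and Tubb3, higher. More cells were called in G2/M after Idoxuridine (52.0% against 39.0%) and fewer in S phase (45.7% against 60.7%). The part of these differences in the results below was not tested. Some values are given there for cells within a shared range of nuclear-retained RNA or of a single phase.

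Chromatin remodelers use ATP to slide, evict or exchange nucleosomes. Histone modifiers add or remove methyl and acetyl groups on histone tails, and reader proteins bind those marks. In embryonic stem cells, the esBAF form of the SWI/SNF remodeler, the NuRD deacetylase complex and the polycomb repressive complexes are known to hold the balance between self-renewal and differentiation, and many of the enzymes exist as paralogs that take the same seat in a complex.

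Member levels spanned more than 2 orders of magnitude in each library, from 1.40 to 598 CPM in DMSO and from 1.94 to 739 CPM in Idoxuridine. The median member was at 32.2 CPM in DMSO and 36.2 CPM in Idoxuridine, and the members summed to 6097 and 6432 CPM. Smarca5, the ISWI remodeling ATPase, was the highest member in both, at 598 CPM (591–606) in DMSO and 739 CPM (729–748) in Idoxuridine. It was followed by Hdac1, a class I histone deacetylase, at 414 and 460 CPM. Cbx1, which binds methylated H3K9, was at 277 and 276 CPM, and Ezh2, the H3K27 methyltransferase, at 276 and 250 CPM. By family, the Smarc genes held the largest sum, 1584 CPM in DMSO and 1787 CPM in Idoxuridine, and the 5 Kmt genes a small one, 114 and 133 CPM.

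**Figure D1:**
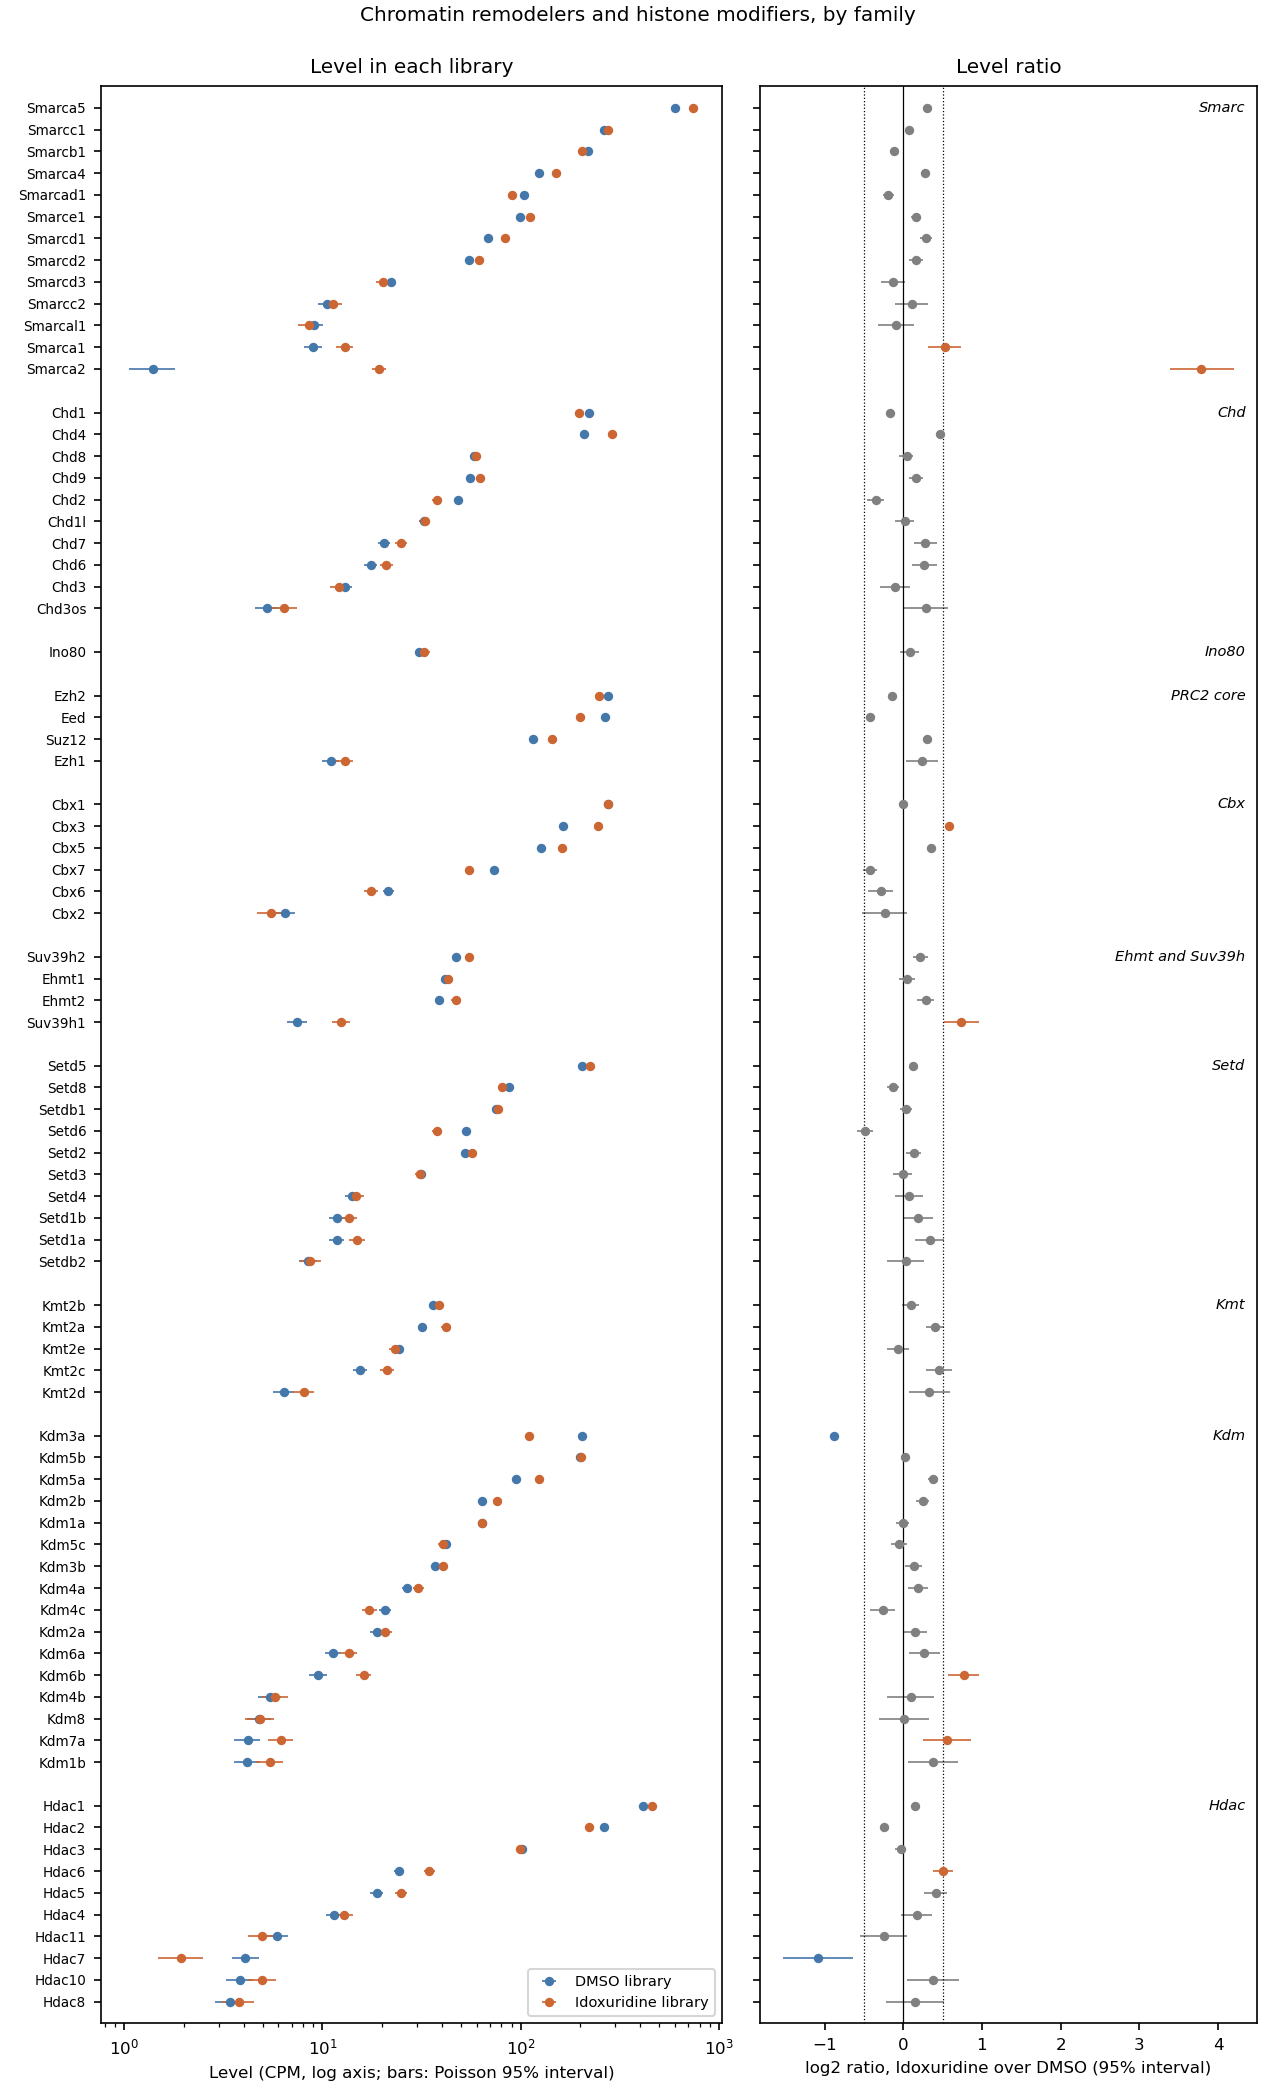
Left, level of 79 of the 80 members in CPM on a log axis in the DMSO (blue) and Idoxuridine (orange) library, grouped by family and ordered by the DMSO level. Right, log2 ratio of Idoxuridine over DMSO, with dotted lines at 0.5 either way. Bars are 95% counting intervals. The 7 members called higher are orange and the 2 called lower are blue, and Smarca2 stands apart at 3.79.

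A gene was called higher or lower in Idoxuridine where its log2 ratio reached 0.5 and the Poisson intervals of its 2 levels did not overlap. By this rule 7 of 80 members were higher, against 18.8% of all tested genes, 2 were lower, against 4.20%, and 71 were neither (9 of 80 called, against 23.0% either way). The median log2 ratio was 0.13 over the members and 0.09 over all tested genes, and 46 members lay within 0.25 of 0. Depth was enough to separate the counting intervals of abundant members at smaller differences, such as Smarca5 at a log2 ratio of 0.30. Ratios depended on abundance: the median over all genes ran from 0.45 in the lowest eighth of abundance to −0.06 in the highest. They also depended on the scaling. TMM factors moved every log2 ratio by −0.21 and the median of all genes to −0.12. With them 3 members were higher (Kdm6b, Smarca2 and Suv39h1), against 12.1% of all genes. Another 6 were lower (Cbx7, Chd2, Eed, Hdac7, Kdm3a and Setd6), against 12.2%. With median-of-ratios factors, 3 were higher and 5 lower, against 15.3% and 6.45% of all genes. Smarca2, Suv39h1, Kdm6b, Hdac7 and Kdm3a were called in the same direction under total, TMM and median-of-ratios scaling.

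Among the Smarc genes, 2 of 13 were higher and 0 lower, with a median log2 ratio of 0.16. The outstanding difference was Smarca2, which encodes Brm, the alternative ATPase of SWI/SNF complexes. It had 57 UMIs in DMSO, 1.40 CPM (1.06–1.81), and 588 in Idoxuridine, 19.3 CPM (17.8–20.9), a log2 ratio of 3.79 (3.40–4.21). At a fixed depth of 23500 UMIs per cell, 22 of 764 DMSO cells (2.88%) had a Smarca2 UMI, against 204 of 648 after Idoxuridine (31.5%). Of the Idoxuridine cells, 137 had 1 UMI, 39 had 2 and 28 had 3 or more, with at most 6. No class of cells that should lack Smarca2 was available, and the part of free RNA in these shares was not tested. The log2 ratio was between 3.52 and 4.11 in every alternative run, including cells of S phase alone (4.07) and of G2/M alone (3.61). It was 3.71 in cells whose share of nuclear-retained RNA lay between 0.192% and 0.747%, a range shared by both libraries. This kept 636 DMSO and 520 Idoxuridine cells, and the share was not matched within the range.

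Smarca4 encodes Brg1, the ATPase of esBAF, and was the main form in both libraries at 124 CPM (121–127) and 151 CPM (146–155). Its log2 ratio was 0.28 (0.22–0.34), not called. Smarca2 thus made up 1.11% (0.844–1.44) of the UMIs of this pair in DMSO and 11.4% (10.5–12.3) in Idoxuridine. The start-proximal sequences of both ATPase genes, and of Kdm3a described further on, are given because the Smarca2 share moved most of the paralog shares over all cells (by 10.3 percentage points; in S phase cells alone Kdm6b moved by 11.9 and Smarca2 by 10.0), and Kdm3a had the largest log2 ratio by size of the members above 100 CPM. They are from RefSeq on GRCm38.p6, written 5′ to 3′ on the gene's strand, with CG dinucleotides in capitals, and end at the GENCODE M21 5′ end of the gene. That of Smarca2 is chr19:26604910-26605049 on the + strand, that of Smarca4 is chr9:21615919-21616168 on the + strand and that of Kdm3a is chr6:71632991-71633167 on the − strand.
Smarca2: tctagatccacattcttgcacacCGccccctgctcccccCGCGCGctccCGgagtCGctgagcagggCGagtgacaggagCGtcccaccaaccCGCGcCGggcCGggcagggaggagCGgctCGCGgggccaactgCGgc
Smarca4: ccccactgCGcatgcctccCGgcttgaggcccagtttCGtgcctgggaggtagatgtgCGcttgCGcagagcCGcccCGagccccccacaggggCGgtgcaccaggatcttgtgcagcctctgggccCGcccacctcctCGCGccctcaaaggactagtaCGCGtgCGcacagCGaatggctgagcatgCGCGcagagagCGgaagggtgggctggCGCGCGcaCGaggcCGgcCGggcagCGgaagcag
Kdm3a: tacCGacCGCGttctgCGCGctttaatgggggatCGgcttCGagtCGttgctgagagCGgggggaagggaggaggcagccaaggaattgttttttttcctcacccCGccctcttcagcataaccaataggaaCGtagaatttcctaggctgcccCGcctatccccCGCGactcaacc
All 3 were dense in CG: the 250 bases before the RefSeq start held 28 CG for Smarca2, 25 for Smarca4 and 20 for Kdm3a. RefSeq windows could be matched to 61 members, and the 55 whose start lay within 1000 bases of the GENCODE 5′ end held a median of 20 CG, against 6 over all 32851 windows of this length. On either strand, GGGCGG was present in 40 of the 55 (72.7%, against 32.7% of all windows), CCAAT in 23 (41.8%, against 33.8%), ACGTG in 10 (18.2%, against 16.6%) and TATAAA in 1 (1.82%, against 12.4%). All windows were used, with no limit to genes expressed in these cells. Whether these contrasts are particular to the members was not tested. The Kdm3a window held 2 CCAAT and the windows of Smarca2 and Smarca4 held none. A match is a description of these letters only, and no measurement of the libraries bears on binding or methylation there.

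The other Smarc genes differed little. Smarca1, the minor ISWI ATPase, was at 8.99 CPM in DMSO and 12.9 CPM in Idoxuridine, a log2 ratio of 0.52 (0.32–0.73) that fell short of the threshold after TMM scaling (0.31). Smarca5 had a log2 ratio of 0.30 (0.28–0.33), and Smarca1 made up 1.48% and 1.72% of the ISWI pair, with overlapping intervals. The core SWI/SNF subunits Smarcb1, Smarcc1 and Smarce1 had ratios of −0.11, 0.07 and 0.16. Of 15 partner subunits of SWI/SNF from a fixed list, such as Arid1a, Pbrm1 and Ss18, 0 were higher and 0 lower, with a median of 0.12. Another 6 of the 21 listed were below the minimum of 200 UMIs and were not tested. Of these Bcl11b, a zinc finger subunit, had 7 UMIs in DMSO and 82 in Idoxuridine, a log2 ratio of 3.97 (2.87–5.33). Others below the minimum included Ss18l1 with 62 and 81 UMIs, Gltscr1 with 37 and 26, Bcl11a with 23 and 21 and Actl6b with 0 in both. With a minimum of 50 UMIs, 24.5% of all genes were called higher. The accessory subunits Smarcd1, Smarcd2 and Smarcd3 had ratios of 0.29, 0.16 and −0.13.

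None of the 10 Chd genes was called, with a median log2 ratio of 0.10. Chd4, the ATPase of NuRD, came closest: it was at 209 CPM (205–214) in DMSO and 290 CPM (284–296) in Idoxuridine, a log2 ratio of 0.47 (0.42–0.51). The intervals were separate and only the size fell short. In G2/M cells alone it was called higher. Chd1, which binds H3K4-methylated promoters, was at 222 and 197 CPM, a ratio of −0.17 (−0.21 to −0.12), and Chd2 at 48.4 and 37.9 CPM, a ratio of −0.35. Ino80, the ATPase of its own complex, was at 30.9 and 32.7 CPM. Of 20 ISWI and INO80 partners, Baz1a, a subunit of the ACF remodeler that pairs with Smarca5, was higher at 13.7 CPM in DMSO and 32.5 CPM in Idoxuridine, a log2 ratio of 1.25 (1.10–1.40), and the other 19 were not called.

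The core of polycomb repressive complex 2 comprised Ezh1, Ezh2, Eed and Suz12, of which 0 were called. Its subunits went in opposite directions. Eed, which reads H3K27me3, was at 266 CPM (261–271) in DMSO and 199 CPM (194–204) in Idoxuridine, a log2 ratio of −0.42 (−0.46 to −0.37) that was called lower after TMM scaling. Suz12, the scaffold of the complex, was at 116 and 144 CPM, a ratio of 0.31 (0.25–0.37) that fell to 0.10 after TMM scaling. Ezh2 had a ratio of −0.14 (−0.19 to −0.10). Ezh1, its paralog, was at 11.0 and 13.0 CPM and made up 3.83% (3.49–4.19) and 4.93% (4.47–5.43) of the pair. Of 6 PRC2 accessory genes, 2 were higher. Aebp2 was at 56.0 and 87.8 CPM with a ratio of 0.65 (0.57–0.73), and Phf1 at 3.06 and 4.83 CPM with a ratio of 0.66 (0.30–1.01). The shift by TMM factors would take both below the threshold. Phf1 was in the lowest eighth of abundance, where the median log2 ratio of all genes was 0.45 and 45.7% were called higher. Phf19, below the minimum and not tested, had 18 and 60 UMIs, a ratio of 2.16 (1.38–3.01).

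Of the polycomb Cbx genes, which read H3K27me3 in PRC1, Cbx7 was in both libraries at a higher level than Cbx6 and Cbx2, at 73.5 CPM (70.9–76.2) and 54.9 CPM (52.3–57.6). Its log2 ratio of −0.42 (−0.51 to −0.34) missed the threshold and passed it after TMM scaling. Cbx6 was at 21.5 and 17.6 CPM, and Cbx2 was at 6.44 and 5.48 CPM. The 3′ end of Cbx6 overlaps Npcd on the same strand. Of 16 other PRC1 genes, 2 were higher, Pcgf3 (0.97) and Pcgf5 (0.74), both RING finger partners of variant PRC1. Another 2 were lower, Phc1 (−0.66), which forms polymers in canonical PRC1, and Pcgf1 (−0.51). The median of the list was −0.00.

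The genes of the H3K9 methylation pathway include its writers Suv39h1, Suv39h2, Ehmt1, Ehmt2 and Setdb1 and its readers, the HP1 proteins encoded by Cbx1, Cbx3 and Cbx5. Cbx3 (HP1γ) was at 164 CPM (160–168) in DMSO and 246 CPM (240–251) in Idoxuridine, a log2 ratio of 0.58 (0.53–0.63), called higher. It did not reach the threshold under either other scaling (0.37 with TMM factors and 0.49 with median-of-ratios factors). Cbx5 (HP1α) was at 127 and 162 CPM, with a ratio of 0.36 (0.30–0.42), and Cbx1 (HP1β) had a ratio of −0.00 (−0.04 to 0.04). Suv39h1 was at 7.45 CPM (6.63–8.33) in DMSO and 12.4 CPM (11.2–13.7) in Idoxuridine, a ratio of 0.74 (0.52–0.96), called higher. Its more abundant paralog Suv39h2 was at 47.5 and 55.1 CPM, with a ratio of 0.21. The 3′ end of Suv39h1 overlaps Gm14820 on the other strand. Ehmt1, Ehmt2 and Setdb1 had ratios of 0.05, 0.28 and 0.03. Of 11 partners of the pathway, Atf7ip, which stabilises Setdb1, was higher at 38.8 and 67.0 CPM, a ratio of 0.79 (0.69–0.88), and the other 10 were not called.

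None of the 10 Setd genes and none of the 5 Kmt genes was called. Setd5 was the most abundant of the former at 205 and 224 CPM. Setd6 had the lowest ratio, −0.49 (−0.59 to −0.38), at 53.0 CPM in DMSO and 37.8 CPM in Idoxuridine, and was called lower under both other scalings. The H3K4 methyltransferase genes Kmt2a and Kmt2c had ratios of 0.40 (0.29–0.51) and 0.45 (0.29–0.61), and Setd1a one of 0.34 (0.15–0.52), while Kmt2b had 0.09. The 3′ end of Setd1a overlaps Gm49388 on the same strand. The 11 genes of the shared COMPASS core, with which the H3K4 methyltransferases work, had a median of −0.15 and 0 calls. Of these Wdr5 was at 204 and 148 CPM (−0.47) and Dpy30 at 243 and 183 CPM (−0.41). The shift by TMM factors would take both past the threshold in size. Of 18 other methyltransferases and demethylases, Smyd2 was higher (0.57) and the rest were not called. The same shift would take Smyd2 below the threshold. Partner genes of all lists were called with total scaling alone.

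Of the 16 Kdm genes, 2 were higher and 1 lower. Kdm3a, an H3K9 demethylase that is a known target of pluripotency factors, was at 203 CPM (199–208) in DMSO and 111 CPM (107–114) in Idoxuridine, a log2 ratio of −0.88 (−0.94 to −0.82). It was the highest Kdm gene in DMSO and the third in Idoxuridine. At the fixed depth 642 of 764 DMSO cells had 3 or more Kdm3a UMIs and 7 had none, while 277 of 648 Idoxuridine cells had 3 or more and 109 had none. Its ratio was between −0.82 and −1.09 in every alternative. Kdm6b, an H3K27 demethylase, was at 9.51 CPM (8.58–10.5) and 16.2 CPM (14.8–17.7), a ratio of 0.77 (0.57–0.96). Kdm7a, which acts on H3K9 and H3K27, was at 4.19 and 6.17 CPM, a ratio of 0.56 (0.25–0.87). Its 3′ end overlaps a gene on the other strand, and it lay below the threshold after TMM scaling (0.35). Kdm7a was in the lowest eighth of abundance, where the median log2 ratio of all genes was 0.45 and 45.7% were called higher. Kdm5b, an H3K4 demethylase, was at 199 and 202 CPM, a ratio of 0.02, and its paralog Kdm5a at 94.8 and 123 CPM, a ratio of 0.38 (0.31–0.44). Kdm1a (LSD1) was at 63.8 and 63.6 CPM.

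Of the 10 Hdac genes, 1 was higher and 1 lower. Hdac7, a class IIa deacetylase, had 167 UMIs in DMSO and 59 in Idoxuridine, 4.09 CPM (3.49–4.76) and 1.94 CPM (1.47–2.50), a log2 ratio of −1.08 (−1.53 to −0.64). It lies just above the abundance minimum, its 3′ end overlaps Slc48a1 on the other strand, and it was not called in S phase cells alone (−0.51). Hdac6, a mostly cytoplasmic deacetylase, was at 24.4 CPM (22.9–25.9) and 34.7 CPM (32.6–36.8), a ratio of 0.51 (0.38–0.64) that did not reach the threshold under either other scaling (0.30 and 0.42). The nuclear class I genes Hdac1, Hdac2 and Hdac3 had ratios of 0.15 (0.12–0.19), −0.25 (−0.29 to −0.20) and −0.03. Of 19 partners in deacetylase complexes, Mbd2 was higher (0.55) and Sap30, a Sin3 subunit, lower at 282 and 167 CPM (−0.76). Of 12 acetyltransferase genes, Trrap, a scaffold of acetyltransferase complexes, was higher (0.56) and 0 were lower. The shift by TMM factors would take Mbd2 and Trrap below the threshold.

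**Figure D2:**
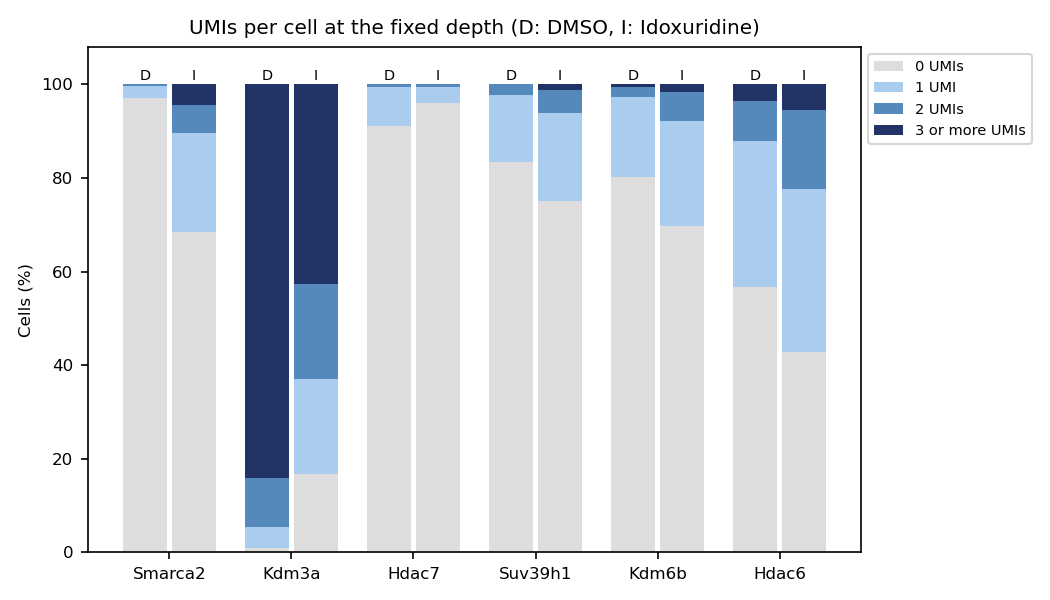
Share of cells with 0, 1, 2 and 3 or more UMIs of 6 members called higher or lower, at the fixed depth, in the DMSO (D, 764 cells) and Idoxuridine (I, 648 cells) library. A Smarca2 UMI was present in 2.88% (D) and 31.5% (I) of cells, and 3 or more Kdm3a UMIs in 642 (D) and 277 (I) cells.

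Within sets of paralogs, shares do not depend on the scaling of the libraries. In 13 of 17 sets at least 1 paralog had shares whose exact binomial (Clopper-Pearson) intervals did not overlap. No such count was made for sets of other genes. With this many UMIs small shifts separate, such as 1.10 percentage points for Ezh1. Cbx1 made up 48.8% (48.1–49.4) of the HP1 genes in DMSO and 40.4% (39.7–41.1) in Idoxuridine, and Cbx3 28.9% (28.3–29.5) and 35.9% (35.2–36.5). Hdac1 made up 61.2% (60.6–61.8) of Hdac1 and Hdac2 in DMSO and 67.6% (66.9–68.2) in Idoxuridine. Kdm6b went from 45.7% (42.3–49.1) to 54.4% (51.0–57.6) of the H3K27 demethylase pair. Over all cells the more abundant gene was thus Kdm6a in DMSO and Kdm6b in Idoxuridine. In G2/M cells alone Kdm6b made up 49.1% in DMSO and 53.2% in Idoxuridine, with intervals that overlapped. Kdm4a went from 50.6% to 57.0% of the Kdm4 set, against 39.2% and 32.3% for Kdm4c. Kdm5a was at 28.2% and 33.7% of the Kdm5 set, and Kdm5b at 59.3% and 55.2%. Kmt2a went from 46.8% (44.9–48.6) to 52.0% (50.1–54.0) of Kmt2a and Kmt2b, and Ehmt2 from 48.1% (46.4–49.9) to 52.2% (50.3–54.1) of the Ehmt pair. Suv39h1 was at 13.6% and 18.4%. Smaller shifts were seen for Smarcd1 (46.9% and 50.5%), Chd1 (82.1% and 83.9% with Chd2) and Chd4 (94.2% and 96.0% with Chd3). Among the other sets, Smarcc1, Smarca5 and Kmt2c had overlapping intervals, which bounds but does not exclude a shift. When each cell was thinned to the fixed depth, 8 of the 17 sets had separate intervals. The sets of Smarcd1, Ezh1, Ehmt2, Chd1 and Kmt2a no longer did, and neither did Kdm4a, while Kdm4c still did. The Kmt2a shift was 2.79 percentage points in thinned cells, against 5.30 with all UMIs, and the Ehmt2 shift 3.81 against 4.07.

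Hdac1 has a near-identical processed pseudogene in the count table, Gm10093, which matches its transcript at 99.4% over all 1444 bases of the copy. In DMSO Gm10093 held 7375 UMIs, 30.4% of the sum of both genes, and in Idoxuridine 6936, or 33.1%. How the counting divided reads between them is not given in the sources used here, so the level of Hdac1 is uncertain by this amount. With the pseudogene's UMIs added, Hdac1 made up 69.4% (68.9–69.9) and 75.7% (75.2–76.2) of the deacetylase pair, a shift in the same direction. The level of the sum was 594 and 688 CPM, a log2 ratio of 0.21. No other member had a pseudogene in the count table with at least 95% identity over 200 bases.

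**Figure D3:**
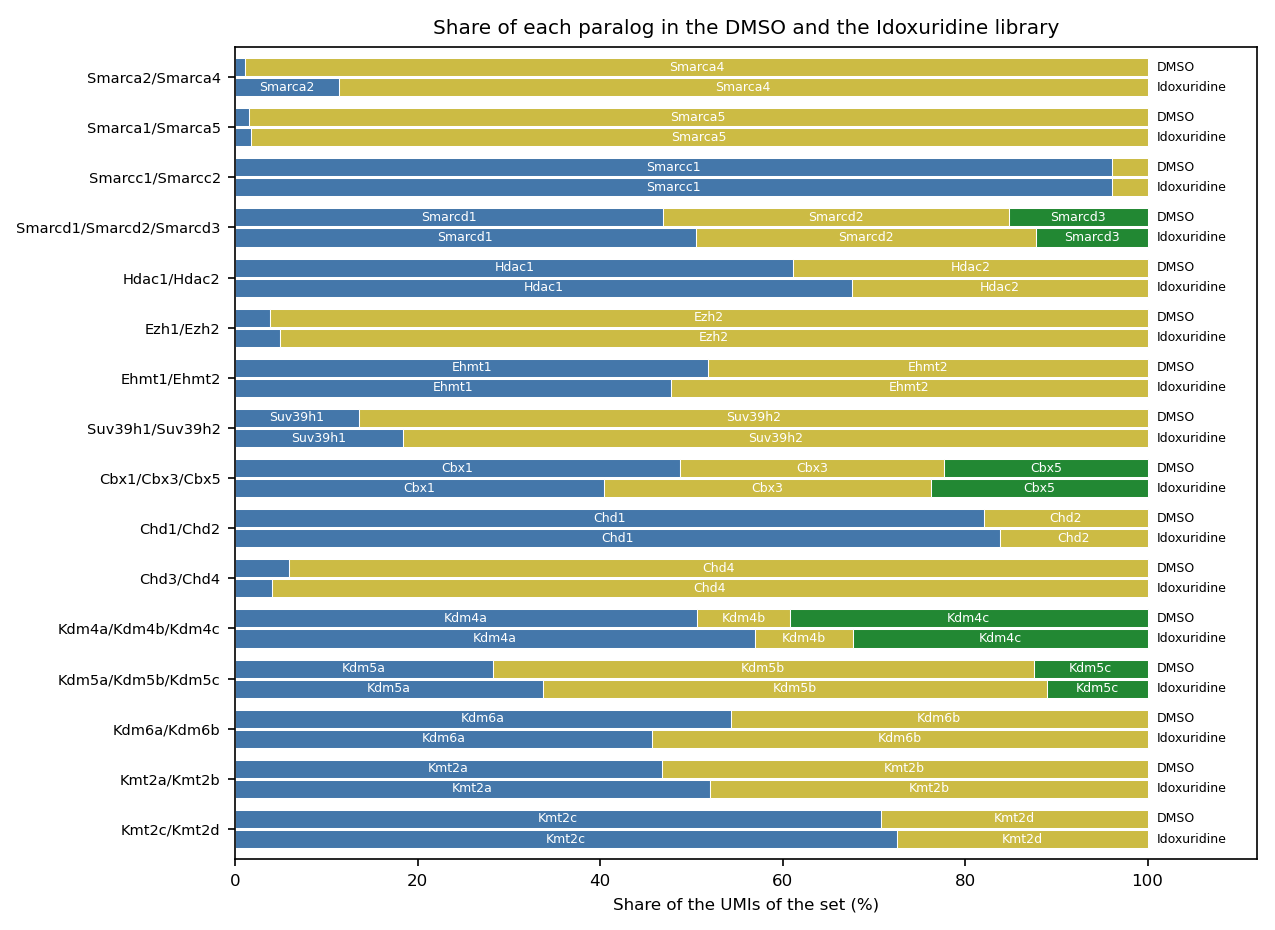
Share of each paralog in the UMIs of its set, in percent, for 16 of the 17 sets, with the DMSO library above the Idoxuridine library in each pair of bars. Among the larger shifts were Smarca2 (1.11% and 11.4%), Kdm6b (45.7% and 54.4%) and Cbx1 (48.8% and 40.4%).

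The spread between cells was described with the Fano factor, which divides the variance of a gene's UMIs across cells by their mean, at the fixed depth. Its value is 1 where counting alone sets the spread. It was computed for the 62 members whose mean reached 0.25 UMI per cell in each library. Over the members the median was 1.09 in DMSO and 1.14 in Idoxuridine, so that most lay close to counting noise. It was higher in Idoxuridine for 50 of 62 members (80.6%), against 79.2% of the 7316 genes tested, and the median log2 Fano ratio was 0.10, against 0.08. A difference of at least 0.25 log2 was called. By this rule 5 members were higher, against 10.5% of genes, and 0 were lower, against 0.383%. The share of members with a higher spread and their median shift were thus close to those of all genes.

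**Figure D4:**
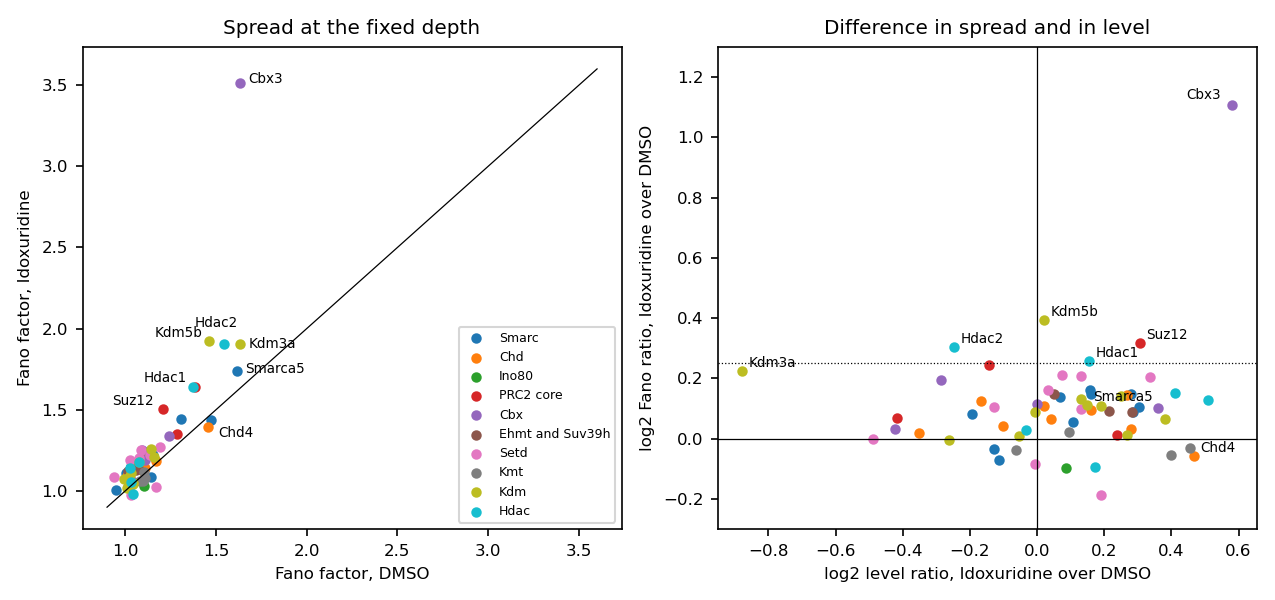
Left, Fano factor of the 62 members in the DMSO and Idoxuridine library, coloured by family, with the line of equality. Right, log2 Fano ratio against log2 level ratio, with a dotted line at 0.25. Cbx3 stands apart at Fano factors of 1.63 and 3.52, and Kdm5b, Suz12, Hdac2 and Hdac1 lie above the dotted line.

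The widest member in DMSO was Cbx3, with a Fano factor of 1.63, and Kdm3a (1.63) and Smarca5 (1.62) were close to it. In Idoxuridine Cbx3 reached 3.52, a log2 ratio of 1.11, Kdm5b 1.92, Hdac2 1.91 and Kdm3a 1.90. Kdm5b had 1.46 in DMSO, a log2 ratio of 0.39 at nearly the same level in both libraries. Hdac2 had 1.54 (ratio 0.31), Suz12 went from 1.21 to 1.50 (0.32) and Hdac1 from 1.37 to 1.64 (0.26). Counted together with Gm10093, the Fano factor of Hdac1 was 1.70 and 2.34, a ratio of 0.46. Of these 5, only Cbx3 was called (1.16) in cells within the shared range of nuclear-retained RNA, where Kdm5b had 0.22 and Hdac1 0.19. In G2/M cells alone Hdac1 had a ratio of −0.06. At the lower depth of 15000 UMIs Cbx3 (0.92) and Kdm5b (0.28) were called of these 5. The lowest ratio was that of Setd1b, −0.19, from 1.17 to 1.03.

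Of the families with more than 1 member, the median log2 Fano ratio was highest for the PRC2 core (0.16) and Hdac genes (0.14) and lowest for the Kmt genes (−0.03), with 1 member of 4 Kmt genes above 0. Of the 11 partners in the H3K9 pathway, 5 passed 0.25, against 10.5% of all genes tested, and 0 were lower, against 0.383%. They were Atrx, Atf7ip, Trim28, Morc3 and Uhrf1, with log2 Fano ratios from 0.25 to 0.37, and the list median was 0.21, against 0.08 over all genes. The median level of the list was 109 CPM in DMSO, against 25.2 CPM over all genes with at least 200 UMIs. A share among genes of like abundance was not computed. Nor was the list run in cells within the shared range of nuclear-retained RNA.

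The distribution of Cbx3 had a long upper tail. At the fixed depth the median cell had 4 Cbx3 UMIs in DMSO and 5 in Idoxuridine, the 10th percentiles were 1 and 2, and the 90th percentiles 7 and 13. Cells with 9 or more were 30 of 764 in DMSO, 3.93% (2.66–5.56), and 121 of 648 in Idoxuridine, 18.7% (15.7–21.9). The highest cell had 18 and 28. A Slc24a5 UMI was present in 14 of the 30 and 104 of the 121 cells. The number 9 was chosen after the values were seen, and 21 DMSO and 58 Idoxuridine cells lay at 8 or 9.

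The genes most like Cbx3 across the 648 Idoxuridine cells, among 7975 compared after values were seen, were Slc24a5 (Pearson r = 0.51), Pfas (0.38), Myef2 (0.38), Zc3hav1 (0.36) and Rrn3 (0.35). In the 764 DMSO cells the same genes had r of 0.23, 0.19, 0.15, 0.15 and 0.14. These are descriptions across cells of one library at one depth. Slc24a5 encodes an ion exchanger of pigment cells and overlaps Myef2 on the opposite strand, so reads of these neighbours may not be separate. Slc24a5 itself was at 10.9 CPM in DMSO and 47.4 CPM in Idoxuridine, a log2 ratio of 2.12 (1.97–2.28), Myef2 at 23.5 and 66.4 CPM (1.50) and Pfas at 29.3 and 47.8 CPM (0.71). Cells with 3 or more Slc24a5 UMIs were 14 in DMSO, with a mean of 6.43 Cbx3 UMIs, and 104 in Idoxuridine, with a mean of 10.6. Cells with none were 637 in DMSO and 330 in Idoxuridine, with means of 3.63 and 4.20 Cbx3 UMIs. Of the other HP1 genes, Cbx1 had means of 6.40 in Idoxuridine cells with none and 6.35 in those with 3 or more, and 6.40 and 7.0 in DMSO. Cbx5 had means of 3.86 and 4.38 in Idoxuridine, and 2.88 and 3.64 in DMSO. Within cells with no Slc24a5 UMI, a restriction chosen after the values were seen and one that itself selects cells low in Cbx3, the log2 level ratio of Cbx3 was 0.19 in place of 0.58 and its log2 Fano ratio 0.26 in place of 1.11. The last 500 bases of Cbx3 have 11 near copies (at least 95% identity over 100 bases) in the annotation, of which 1 is in the count table, and reads of these copies may be counted with Cbx3 or lost.

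**Figure D5:**
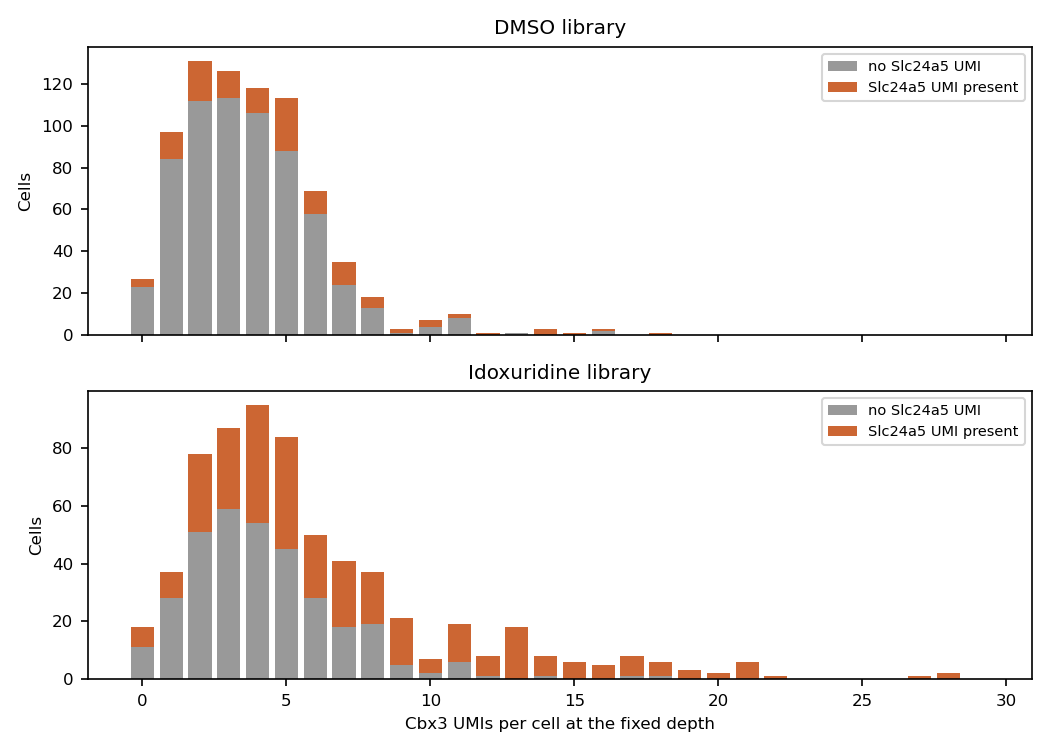
Number of cells by Cbx3 UMIs per cell at the fixed depth in the DMSO library (764 cells, top) and the Idoxuridine library (648 cells, bottom), split by whether the cell had a Slc24a5 UMI. Cells with 9 or more Cbx3 UMIs were 3.93% and 18.7%, and 104 of the 121 such Idoxuridine cells had a Slc24a5 UMI.

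The other wide members were compared with all genes in the same way. Hdac1 was most like its pseudogene Gm10093, with r of 0.54 in Idoxuridine and 0.35 in DMSO, both above the values of Cbx3 with Slc24a5, and reads of the 2 copies may not be separate. Kdm5b was most like Gpx4 (r = 0.32 in Idoxuridine, 0.08 in DMSO), followed by Ckb (0.28), and its r with the summed nuclear-retained RNAs was 0.26 and 0.24. The highest r in Idoxuridine cells was 0.18 for Suz12 (Casp9) and 0.20 for Hdac2 (Eif4g2). Kdm3a was most like Zfp42 (Rex1, a marker of the naive state) in Idoxuridine cells, at 0.30 against 0.06 in DMSO. The next 4 were Acadm (0.25 in Idoxuridine and 0.11 in DMSO), Hmces (0.24 and 0.10), Tdh (0.24 and 0.15) and Klf2 (0.23 and −0.06). Of these Tdh and Klf2 are also naive-state genes. The r of Kdm3a with the summed stem cell markers was 0.23 in Idoxuridine and −0.09 in DMSO. In DMSO its r with the UMIs of the cell before thinning was −0.36. Smarca2 was most like Perp, a p53 target at the plasma membrane (0.24 and 0.19), with Meg3 (0.24), Eef1a1 (0.23) and PISD (0.23) close behind in Idoxuridine. The r of Smarca2 with nuclear-retained RNA was 0.22 and 0.15.

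Single pairs of members had low correlations across cells. Over 496 pairs of 32 members, the median r was 0.02 in DMSO and 0.01 in Idoxuridine. The highest was 0.20 for Hdac2 and Smarca5 in DMSO, and in Idoxuridine 0.18 for Hdac2 and Kdm3a. The sum of all 80 members had a median of 146.5 UMIs per cell (10th to 90th percentile 124–167) in DMSO and 153 (131–175) in Idoxuridine. Its Fano factor was 2.15 and 2.13, and 1.28 and 1.48 when the covariance between members was left out, so that shared variation widened the sum in both libraries. For the Cbx sum the Fano factor was 1.43 and 2.20, and 1.29 and 1.98 without covariance.

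Differences between cell cycle classes were about as frequent among the members as among all genes. Between cells called G2/M and S at the fixed depth, 6 of 62 members were at least 0.25 log2 higher in G2/M and 4 lower in DMSO, against 7.97% and 9.50% of genes, and 6 and 7 in Idoxuridine, against 9.94% and 10.2%. Cells called G1 were too few for comparison, 2 in DMSO and 15 in Idoxuridine. Among abundant members, Smarca5 had 15.6 UMIs per S phase cell and 12.9 per G2/M cell in DMSO (−0.27), and 18.8 and 17.1 in Idoxuridine (−0.13). Kdm5b was higher in G2/M in DMSO, at 5.42 against 4.32 (0.33), and at 4.75 against 4.37 in Idoxuridine (0.12). Kdm3a was at 2.86 in S phase and 2.30 in G2/M cells of Idoxuridine (−0.31), and at 5.36 and 4.91 in DMSO (−0.13). Chd6, Kmt2c and Setd4 were higher in G2/M in both libraries. Cbx5 belongs to the gene list that called G2/M, so its own phase values are not independent of the calls. Smarca2, Kdm6b, Suv39h1, Cbx3 and Kdm3a were called in the same direction in S cells alone and in G2/M cells alone.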

How the data were processed

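Per the labels, 2 single-cell libraries (10x 3′ V2 chemistry, Illumina HiSeq) were made from E14 cells after 24 h in DMSO or Idoxuridine, 1 per treatment. The deposited values are raw UMI counts per gene and cell for 27998 genes. The submitters' processing notes name mm10, Cell Ranger 2 and Seurat. For the annotation release nothing was given in the sources used here. Every barcode in the files was used and no doublet caller was run. The members, the partner lists and the tests were chosen with earlier results of these data known.

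UMIs were summed per library and scaled to CPM, with exact Poisson intervals, and ratios were given exact conditional binomial intervals. For the spread, cells were thinned to 23500 UMIs by exact expectation, which left out 47 DMSO cells (5.80%) and 94 Idoxuridine cells (12.7%). Distributions, correlations and phases used 1 seeded random draw at that depth. Phases were called with scanpy 1.11.5 from the lists that Seurat distributes. TMM factors were from edgeR. Level and Fano computations were tested on simulated data. Positions are GENCODE M21 on GRCm38, and promoter windows are RefSeq on GRCm38.p6.

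Genes were named by a rule: in each family the most abundant in DMSO, every called member, and the highest and lowest Fano ratio, plus every paralog with separate shares and up to 4 partners per list by size of ratio. One member is not reported here by name. Those named outside the rule were chosen after their values were seen.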

Additional observations from a re-analysis of the deposited data

How the results depend on the processing

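No paired analysis was possible because each group is 1 library with no replicate number. Of 9 called members, Smarca2, Kdm6b and Kdm3a were called under every alternative run except the 1 log2 threshold, which called Smarca2 and Hdac7 alone. The members called higher and lower were 7 and 2 as reported, with 18.8% and 4.20% of all tested genes. These shares follow in parentheses for each alternative. With TMM factors they were 3 and 6 (12.1% and 12.2%), and the median log2 ratio of the members was −0.080. With median-of-ratios factors they were 3 and 5 (15.3% and 6.45%), and with a minimum of 500 UMIs 6 and 1 (13.8% and 4.11%). A threshold of 1 log2 gave 1 and 1 (7.15% and 0.491%), and S cells 8 and 1 (16.9% and 4.15%). Cells within the shared range of nuclear-retained RNA gave 6 and 4 (17.4% and 4.77%). Less the median of the abundance eighth, 4 and 3 were called (12.6% and 6.06%). Kdm7a, Suv39h1, Smarca1 and Hdac6 were then no longer called. In cells with no Slc24a5 UMI, an alternative added after seeing the data, 4 and 2 were called (17.8% and 4.58%). Members with a higher Fano factor were 5 as reported (10.5% of all tested genes). At 15000 UMIs they were 3 (6.25%), namely Cbx3, Kdm3a and Kdm5b. With raw UMIs they were 2 (10.2%), Cbx3 and Chd6. With raw UMIs 5 members were lower (12.1%), and the median log2 Fano ratio of the members was 0.0024. The number higher was 1 in cells within the shared range of nuclear-retained RNA (8.40%) and 9 in cells with no Slc24a5 UMI (13.6%). In G2/M cells 1 was lower (1.28%). Hdac1 had a log2 Fano ratio of −0.011 with raw UMIs and −0.057 in G2/M cells. The sets of paralogs with separate shares went from 13 to 8 in thinned cells, which hold fewer UMIs and leave out cells below the fixed depth. The cause of this and of the other changes was not tested. Cells called G1 were too few, and that alternative was not run. Depth limits the members near 200 UMIs, whose counting intervals span more than 0.5 log2.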
